A study of Canis lupus familiaris with 15 samples.

Results

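The genes described here encode the extracellular matrix that epithelial cells stand on: collagen chains, laminin chains and 10 further matrix glycoproteins and proteoglycans. Members were taken by gene symbol. They were every annotated gene named as a collagen chain (36 genes) or as a laminin alpha, beta or gamma chain (10 genes), together with NTN4, TGFBI, FN1, NID1, NID2, HSPG2, AGRN, SPARC, THBS1 and TNC. This gave 56 of the 15115 genes that the array annotation names by a single symbol, and each gene was read from its probe set with the highest mean log2 intensity over all arrays. The gene list was drawn up with earlier results of these data known.

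RNA came from MDCK cells, an established epithelial line from dog kidney whose cells polarise when grown on filters, and was hybridised to 15 Affymetrix canine arrays, 1 array per sample. All cells were cultured for 7 days on Transwell filters in MEM with fetal bovine serum. The HGF + PD group (n = 4) received hepatocyte growth factor (HGF) at 100 ng/ml for 24 h together with 50 uM of a compound spelled PD09859, and the HGF + UO group (n = 3) received the same HGF with 10 uM of UO126. The HGF group (n = 4) received HGF alone, and the Control group (n = 4) received medium only. HGF signals through the MET receptor, and the compounds are given as inhibitors of the MAPK pathway, so the design asks which HGF responses depend on that pathway. No arrays of an inhibitor without HGF were analysed here, a vehicle is not stated, and the inhibitor doses differ, so the inhibitors were not tested against each other.

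A basement membrane is a thin sheet in which a laminin network and a collagen IV network are held together by nidogen and heparan sulphate proteoglycans. Laminins are trimers of an alpha, a beta and a gamma chain. The trimer that holds LAMA3 and LAMB3 sits in hemidesmosomes, where the transmembrane collagen COL17A1 and the integrin that contains ITGA6 also lie, whereas LAMB1 and LAMC1 are chains of the laminins common under kidney tubules. NTN4, a short protein built like the end of a laminin arm, binds LAMC1-type gamma chains and can break up a laminin network.

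Of the 56 members, 36 reached a log2 intensity of 4 on at least 3 of the 15 arrays, the level required for testing. These were 22 collagen chains, 7 laminin chains and 7 others. On all 15 arrays 33 of them reached that level, whereas COL6A3 and COL15A1 did so on 14 arrays and COL10A1 on 3. The other 20 did not reach it on any array. Their highest values lay between 1.90 for LAMA5, the alpha chain of the main tubule laminin, and 3.91 for COL9A1. The 14 collagens among them were COL1A1 (3.16 at most), COL1A2 (2.98), COL4A3 (2.24), COL4A5 (3.17), COL4A6 (3.67), COL5A3 (2.64), COL6A6 (2.71), COL9A1, COL12A1 (3.20), COL16A1 (2.76), COL19A1 (2.36), COL20A1 (2.08), COL23A1 (3.48) and COL24A1 (2.42). The remaining ones were the laminin chains LAMA5, LAMB4 (3.01) and LAMC3 (2.25), the nidogens NID1 (2.90) and NID2 (2.57), and tenascin C, TNC (2.25). A value this low on a GCRMA array is near the floor of the method and does not show that the RNA was missing.

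**Figure D1:**
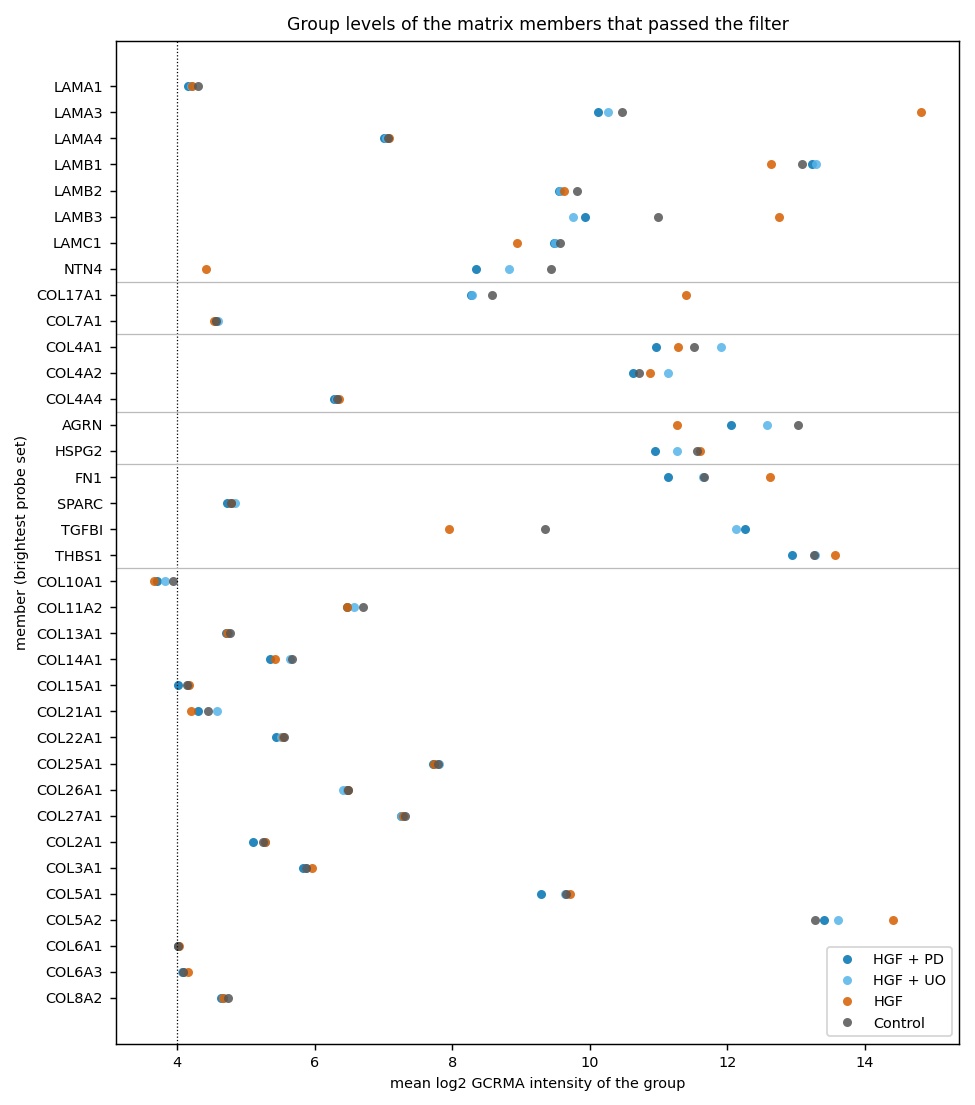
Mean log2 intensity (x axis) of each of the 36 members that reached the testing level, in the HGF + PD (n = 4), HGF + UO (n = 3), HGF (n = 4) and Control (n = 4) groups, with members ordered by role. The dotted line marks a log2 intensity of 4. LAMA3, COL17A1, LAMB3, NTN4 and TGFBI are the members whose group means spread most widely, while the means of most dim collagens fall on top of each other. Levels of different genes come from different probes and are not compared.

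The arrays were alike in overall signal. The median intensity was between 40.2 and 42.5 and between 56.9% and 57.8% of probe sets reached the testing level. The log2 ratio of the 3′ to the 5′ actin probe set, a measure of RNA integrity, was lower on the HGF arrays (1.38 to 1.56) than on the HGF + PD (2.08 to 2.23), HGF + UO (2.11 to 2.19) and Control arrays (2.17 to 2.29). The same ratio for GAPDH was higher on the HGF + UO arrays (2.20 to 2.25) than on the HGF + PD (1.93 to 2.07), HGF (1.90 to 1.97) and Control arrays (1.97 to 2.08). On a second GAPDH pair the HGF + UO arrays (0.229 to 0.278) overlapped the HGF + PD (0.139 to 0.242) and Control arrays (0.185 to 0.273). All 9 kidney epithelial markers were detected, with a summed intensity of 87970 to 110604 on HGF + PD arrays, 95764 to 104651 on HGF + UO arrays, 91753 to 110545 on HGF arrays and 122405 to 133904 on Control arrays. Against Control, 0 of these markers were higher and 8 lower with PD, where 20.2% of all tested probe sets were higher and 14.3% lower. With UO 0 were higher and 7 lower (11.9% and 10.3% of probe sets), and with HGF alone 1 was higher and 5 lower (26.3% and 29.2%). Of the 9 fibroblast markers 4 reached the testing level, COL3A1 among them, and 5 did not. DCN, ACTA2, COL1A1 and COL1A2 were below it on every array. With HGF against Control 0 fibroblast markers were higher and 1 lower (26.3% and 29.2% of probe sets). Against HGF, 0 were higher and 1 lower with PD (30.3% and 25.1%), and 1 higher and 0 lower with UO (27.2% and 25.2%). Against Control 0 were called with either inhibitor. The sum over all 9 was 294.3 to 313.3 with HGF and 283.1 to 321.8 in Control, which overlapped. It was 281.7 to 305.7 on HGF + UO arrays and 270.5 to 283.5 on HGF + PD arrays, the latter all below HGF. The 3 leukocyte markers summed to 62.5 to 305.5 with HGF and 40.1 to 46.2 in Control, a difference carried by CD68, while PTPRC did not reach the level required for testing. The part of the actin and GAPDH ratios, the epithelial markers and CD68 in the results below was not tested. In RNA from whole cultures, fewer cells of a type and less RNA per cell cannot be told apart.

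HGF changed 7 matrix genes by more than 1 on the log2 scale, while most of the detected collagens did not pass the test. Compared with Control, the hemidesmosome genes LAMA3, LAMB3 and COL17A1 rose, as did the fibrillar collagen COL5A2, fibronectin (FN1) and thrombospondin 1 (THBS1). NTN4, AGRN and TGFBI fell by more than 1 on the log2 scale, and LAMB1, LAMC1, COL11A2 and COL21A1 fell by less. In all, 6 of the 56 members were higher and 7 lower at an adjusted p of 0.05 (limma, Benjamini-Hochberg over 24904 probe sets), where 26.3% of all tested probe sets were higher and 29.2% lower. The share of members called, 23.2%, or 36.1% of those that reached the testing level, was below the share of all probe sets. The median difference was -0.0023 over the 56 members and -0.0021 over all probe sets.

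The laminin chains moved in opposite directions. LAMA3, the alpha chain of the hemidesmosome laminin, read 14.71, 14.76, 14.86 and 14.93 on the 4 HGF arrays and 10.22, 10.56, 10.34 and 10.73 on the 4 Control arrays. Every HGF array was far above every Control array, and the difference of 4.35 ± 0.12 (SE), or 20.4-fold, had an adjusted p of 1.45e-12. Its partner LAMB3 read 12.62, 12.76, 12.75 and 12.84 with HGF and 11.08, 10.92, 10.88 and 11.07 in Control. These groups did not overlap either, and LAMB3 was 1.75 ± 0.08 higher, or 3.37-fold (adjusted p = 2.12e-10).

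LAMB1 and LAMC1, the beta and gamma chains of the more widespread laminins, fell. LAMB1 averaged 12.63 ± 0.06 with HGF and 13.09 ± 0.08 in Control (SD, n = 4 each), a difference of -0.46 ± 0.06 (SE, adjusted p = 5.46e-06). LAMC1 averaged 8.94 ± 0.12 with HGF and 9.56 ± 0.02 in Control, a difference of -0.62 ± 0.10 (adjusted p = 8.71e-05). For both chains all HGF arrays lay below all Control arrays. LAMB2, a beta chain of mature kidney and synaptic laminins, averaged 9.62 ± 0.21 with HGF and 9.81 ± 0.19 in Control and did not pass the test (-0.19, adjusted p = 0.18). HGF replicate 1 stood apart for it, and without that array LAMB2 was lower (-0.29), as it also was without Control replicate 1 (-0.28). Of the 6 LAMB2 probe sets above the testing level, 0 were called higher and 1 lower, with differences between -0.30 and 0.05. LAMA1, the alpha chain of embryonic laminin, averaged 4.23 ± 0.07 with HGF and 4.30 ± 0.06 in Control, and LAMA4, an alpha chain of vessel laminins, averaged 7.09 ± 0.03 with HGF and 7.07 ± 0.07 in Control.

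NTN4 showed the widest fall of any member. It read 4.55, 4.13, 4.56 and 4.44 on the HGF arrays, just above the testing level, and 9.57, 9.35, 9.56 and 9.29 on the Control arrays. The difference was -5.02 ± 0.13, or 32.5-fold lower with HGF (adjusted p = 7.5e-13). Since GCRMA compresses low values, the size of this fold depends on the background estimate on the HGF arrays. A second NTN4 probe set gave -4.98.

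COL17A1, a collagen that spans the cell membrane in hemidesmosomes, read 11.16, 11.31, 11.49 and 11.66 with HGF and 8.54, 8.64, 8.58 and 8.58 in Control. It was 2.82 ± 0.09 higher, or 7.05-fold, with no overlap (adjusted p = 3.32e-12). COL7A1, which forms the anchoring fibrils of skin beneath hemidesmosomes, was dim and showed no such difference, at 4.54 ± 0.03 with HGF and 4.57 ± 0.17 in Control.

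The network-forming collagen IV chains did not pass the test with HGF in the fit over all arrays. COL4A1 read 11.13 to 11.39 on the HGF arrays and 11.45 to 11.63 on the Control arrays. The arrays did not overlap, but the difference of -0.23 did not pass the test (95% interval -0.46 to 0.00, adjusted p = 0.0906). It passed after quantile normalization (-0.29, adjusted p = 0.0216) and when only these 2 groups were fitted (adjusted p = 0.0183). COL4A2, its partner in the trimer, read 10.74 to 10.97 with HGF and 10.61 to 10.76 in Control (0.16, adjusted p = 0.313). COL4A4, a chain of the glomerular collagen IV, averaged 6.35 ± 0.06 with HGF and 6.32 ± 0.03 in Control and did not pass the test in any comparison.

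The heparan sulphate proteoglycans differed. Agrin (AGRN), which links laminin to dystroglycan at the cell surface, read 10.99, 11.28, 11.56 and 11.26 with HGF and 13.01, 13.05, 13.30 and 12.72 in Control. All HGF arrays were lower, and the difference was -1.75 ± 0.17, or 3.36-fold (adjusted p = 6.21e-07). Perlecan (HSPG2) read 11.56 to 11.66 with HGF and 11.44 to 11.75 in Control, which overlapped (0.04, 95% interval -0.17 to 0.24, adjusted p = 0.784). Of the 3 AGRN probe sets above the testing level, the dimmest gave 0.03, and the mean over all 3 was -1.03. A dimmer HSPG2 probe set was lower (-0.29, adjusted p = 0.0473).

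Among the adhesive glycoproteins, FN1, the soluble and matrix protein bound by several integrins, read 12.67, 12.65, 12.56 and 12.59 with HGF and 11.26, 11.81, 11.61 and 11.95 in Control. It rose by 0.96 ± 0.14, or 1.95-fold (adjusted p = 3.42e-05), and the arrays did not overlap. THBS1, a large matricellular protein that binds and activates latent TGF-beta, averaged 13.56 ± 0.10 with HGF and 13.26 ± 0.13 in Control and rose by 0.30 ± 0.08 (SE, adjusted p = 0.00458). TGFBI, a secreted protein named for its induction by TGF-beta that binds collagens and integrins, read 7.70, 8.06, 7.95 and 8.11 with HGF and 9.77, 9.20, 9.38 and 9.05 in Control. All 4 HGF arrays lay below Control, and the difference was -1.39 ± 0.15, or 2.63-fold (adjusted p = 1.25e-06). SPARC, a collagen-binding matricellular protein, averaged 4.78 in both groups.

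COL5A2, a chain of the collagen that starts fibril assembly, was the 1 fibrillar collagen to rise. It read 14.34, 14.56, 14.33 and 14.40 with HGF and 13.24, 13.28, 13.22 and 13.32 in Control, a difference of 1.14 ± 0.05, or 2.2-fold, with no overlap (adjusted p = 2.27e-10). COL5A1, the chain it assembles with, averaged 9.71 ± 0.06 with HGF and 9.66 ± 0.18 in Control (0.05, adjusted p = 0.712). COL3A1 averaged 5.96 with HGF and 5.88 in Control, which did not pass the test. COL11A2, another fibrillar chain, averaged 6.47 ± 0.12 with HGF and 6.70 ± 0.15 in Control, lower with overlapping arrays (-0.23 ± 0.08, adjusted p = 0.0238), and that call was lost without Control replicate 3 (-0.16), Control replicate 4 (-0.22), HGF replicate 2 (-0.19) or HGF replicate 4 (-0.21). COL21A1, a dim fibril-associated collagen, averaged 4.21 ± 0.12 with HGF and 4.46 ± 0.11 in Control and was also lower (-0.25 ± 0.09, adjusted p = 0.0326), a call lost without Control replicate 2 (-0.19), HGF replicate 2 (-0.22) or HGF replicate 3 (-0.21).

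**Figure D2:**
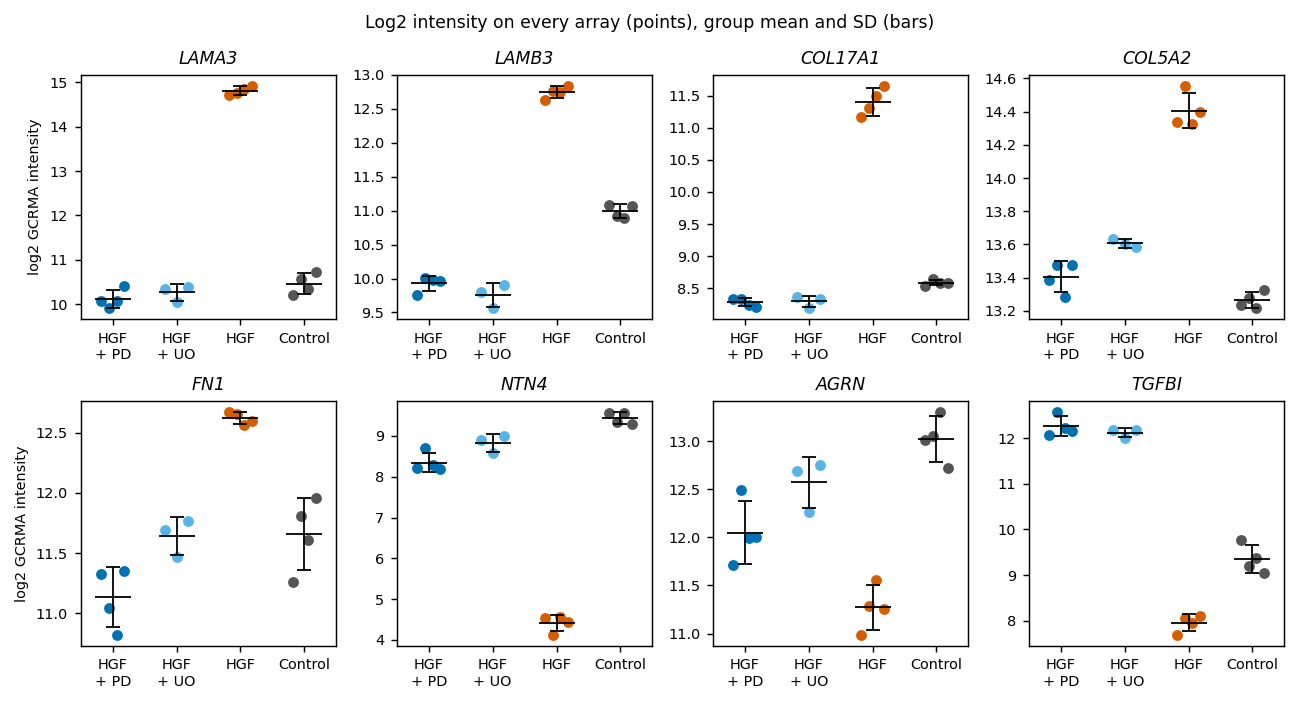
Log2 intensity (y axis) on every array for LAMA3, LAMB3, COL17A1, COL5A2, FN1, NTN4, AGRN and TGFBI in the HGF + PD, HGF + UO, HGF and Control groups. Points are single arrays and bars are the mean ± SD. The 4 HGF arrays stand above Control for LAMA3, LAMB3, COL17A1, COL5A2 and FN1 and below Control for NTN4, AGRN and TGFBI, and both inhibitor groups lie apart from HGF in all 8 panels.

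Adding PD to HGF lowered the hemidesmosome genes, FN1 and COL5A2 and raised NTN4, TGFBI and AGRN, compared with HGF alone. With PD 5 of the 56 members were higher and 10 lower, where 30.3% of probe sets were higher and 25.1% lower. With UO 7 were higher and 7 lower, where 27.2% of probe sets were higher and 25.2% lower. Of the 36 members tested, 41.7% were called with PD and 38.9% with UO (26.8% and 25% of all 56). Median differences over the 56 members were -0.046 with PD and -0.0046 with UO, beside -0.029 and -0.0017 over all probe sets. Both comparisons, and that of HGF with Control, use the same 4 HGF arrays, so a chance deviation of those arrays enters all of them.

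LAMA3 read 10.07, 9.92, 10.07 and 10.41 on the HGF + PD arrays and 10.35, 10.04 and 10.40 on the HGF + UO arrays, against a mean of 14.81 ± 0.10 with HGF alone. No inhibitor array came near an HGF array. LAMA3 fell by 4.69 ± 0.12 with PD (25.9-fold, adjusted p = 7.42e-13) and by 4.55 ± 0.13 with UO (23.4-fold, adjusted p = 2.68e-12). LAMB3 read 9.76, 10.00, 9.98 and 9.97 with PD and 9.80, 9.56 and 9.91 with UO, against 12.74 ± 0.09 with HGF. It fell by 2.81 ± 0.08 with PD (7.04-fold, adjusted p = 1.95e-12) and by 2.99 ± 0.09 with UO (7.92-fold, adjusted p = 2.85e-12). These LAMB3 values were below those of Control as well as those of HGF.

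COL17A1 read 8.32, 8.34, 8.25 and 8.21 with PD and 8.36, 8.19 and 8.34 with UO, against 11.40 ± 0.22 with HGF. It fell by 3.13 ± 0.09 with PD (8.72-fold, adjusted p = 1.36e-12) and by 3.11 ± 0.09 with UO (8.63-fold, adjusted p = 3.46e-12). The inhibitor arrays did not overlap those of HGF. COL5A2 read 13.38, 13.48, 13.28 and 13.48 with PD and 13.63, 13.60 and 13.58 with UO, against 14.40 ± 0.11 with HGF. Its differences from HGF were -0.998 ± 0.05 with PD and -0.80 ± 0.06 with UO (adjusted p = 9.31e-10 and 2.81e-08).

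LAMB1 and LAMC1, which were lower with HGF than in Control, were higher with either inhibitor than with HGF alone. LAMB1 differed by 0.60 ± 0.06 with PD and 0.65 ± 0.06 with UO (adjusted p = 3.23e-07 and 3.52e-07), and LAMC1 by 0.54 ± 0.10 with PD and 0.56 ± 0.11 with UO (adjusted p = 0.000287 and 0.000483). As the mean of its probe sets the LAMC1 difference with PD was 0.33. LAMB2 did not pass the test with PD (-0.08, adjusted p = 0.604).

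NTN4 read 8.21, 8.69, 8.28 and 8.20 with PD and 8.90, 8.59 and 8.99 with UO, against 4.42 ± 0.20 with HGF. It was higher than with HGF on every inhibitor array, by 3.92 ± 0.13 with PD (15.2-fold, adjusted p = 8.3e-12) and 4.41 ± 0.14 with UO (21.2-fold, adjusted p = 7.35e-12). AGRN read 11.71, 12.49, 11.99 and 12.00 with PD and 12.69, 12.27 and 12.75 with UO, against 11.27 ± 0.23 with HGF. It rose by 0.78 ± 0.17 with PD (adjusted p = 0.00135) and by 1.30 ± 0.19 with UO (adjusted p = 3.24e-05), or by 0.39 and 0.72 as the mean of its 3 probe sets. HSPG2, which did not pass the test for HGF against Control, averaged 10.95 ± 0.12 with PD and 11.27 ± 0.25 with UO, against 11.60 ± 0.04 with HGF. It was lower than with HGF, at -0.65 ± 0.10 with PD (SE, adjusted p = 4.11e-05) and -0.33 ± 0.10 with UO (adjusted p = 0.0145). The UO call was lost without HGF + UO replicate 2 (-0.19), and as the mean of all its probe sets HSPG2 gave -0.35 with PD and -0.13 with UO, and the UO value was not called.

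TGFBI reached its highest values with the inhibitors. It read 12.07, 12.58, 12.23 and 12.17 with PD and 12.18, 12.00 and 12.18 with UO, against 7.96 ± 0.19 with HGF. The lowest inhibitor array was above the highest array of either other group. The differences from HGF were 4.31 ± 0.15 with PD (19.8-fold, adjusted p = 9.27e-12) and 4.17 ± 0.16 with UO (17.9-fold, adjusted p = 3.47e-11).

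FN1 read 11.33, 11.04, 10.83 and 11.35 with PD and 11.69, 11.46 and 11.77 with UO, against 12.62 ± 0.05 with HGF. It fell by 1.48 ± 0.14 with PD (adjusted p = 4.09e-07) and by 0.98 ± 0.15 with UO (adjusted p = 6.65e-05), without overlap. THBS1 fell by 0.62 ± 0.08 with PD (adjusted p = 9.02e-06) and by 0.29 ± 0.09 with UO (adjusted p = 0.0111), and the UO call was lost without HGF + UO replicate 2 (-0.22). COL5A1 averaged 9.28 ± 0.12 with PD and 9.64 ± 0.25 with UO, against 9.71 ± 0.06 with HGF. It fell by 0.43 ± 0.11 with PD (SE, adjusted p = 0.00309), while its difference with UO was -0.07 (adjusted p = 0.668). As the mean of all its probe sets the difference with PD was -0.26.

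The collagen IV chain COL4A1 read 10.83, 11.24, 10.71 and 11.05 with PD and 11.96, 11.68 and 12.07 with UO, against 11.13, 11.26, 11.39 and 11.33 with HGF. The PD arrays overlapped HGF and averaged lower (-0.32 ± 0.11, adjusted p = 0.0225), while all UO arrays were higher (0.62 ± 0.12, adjusted p = 0.000403). The PD call was lost without HGF + PD replicate 1 (-0.28), HGF + PD replicate 3 (-0.24), HGF replicate 3 (-0.28) or HGF replicate 4 (-0.30). That call was also lost as the mean of all COL4A1 probe sets (-0.28, adjusted p = 0.0638) and with only these 2 groups fitted (adjusted p = 0.0501). COL4A2 did not pass the test, with differences of -0.24 with PD (adjusted p = 0.123) and 0.26 with UO (adjusted p = 0.128). It passed without HGF + PD replicate 4 (-0.33 with PD) and without HGF + UO replicate 2 (0.42 with UO). Because the doses differ and each group was set against HGF, the contrast between PD and UO is given as values only. COL15A1, a basement membrane zone collagen near the testing level, averaged 4.02 ± 0.09 with PD and 4.17 ± 0.05 with HGF (-0.15 ± 0.05, adjusted p = 0.0278), a call lost without HGF + PD replicate 1 (-0.11), HGF replicate 1 (-0.13) or HGF replicate 2 (-0.14). COL21A1 was higher with UO (0.37 ± 0.10, adjusted p = 0.0058).

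**Figure D3:**
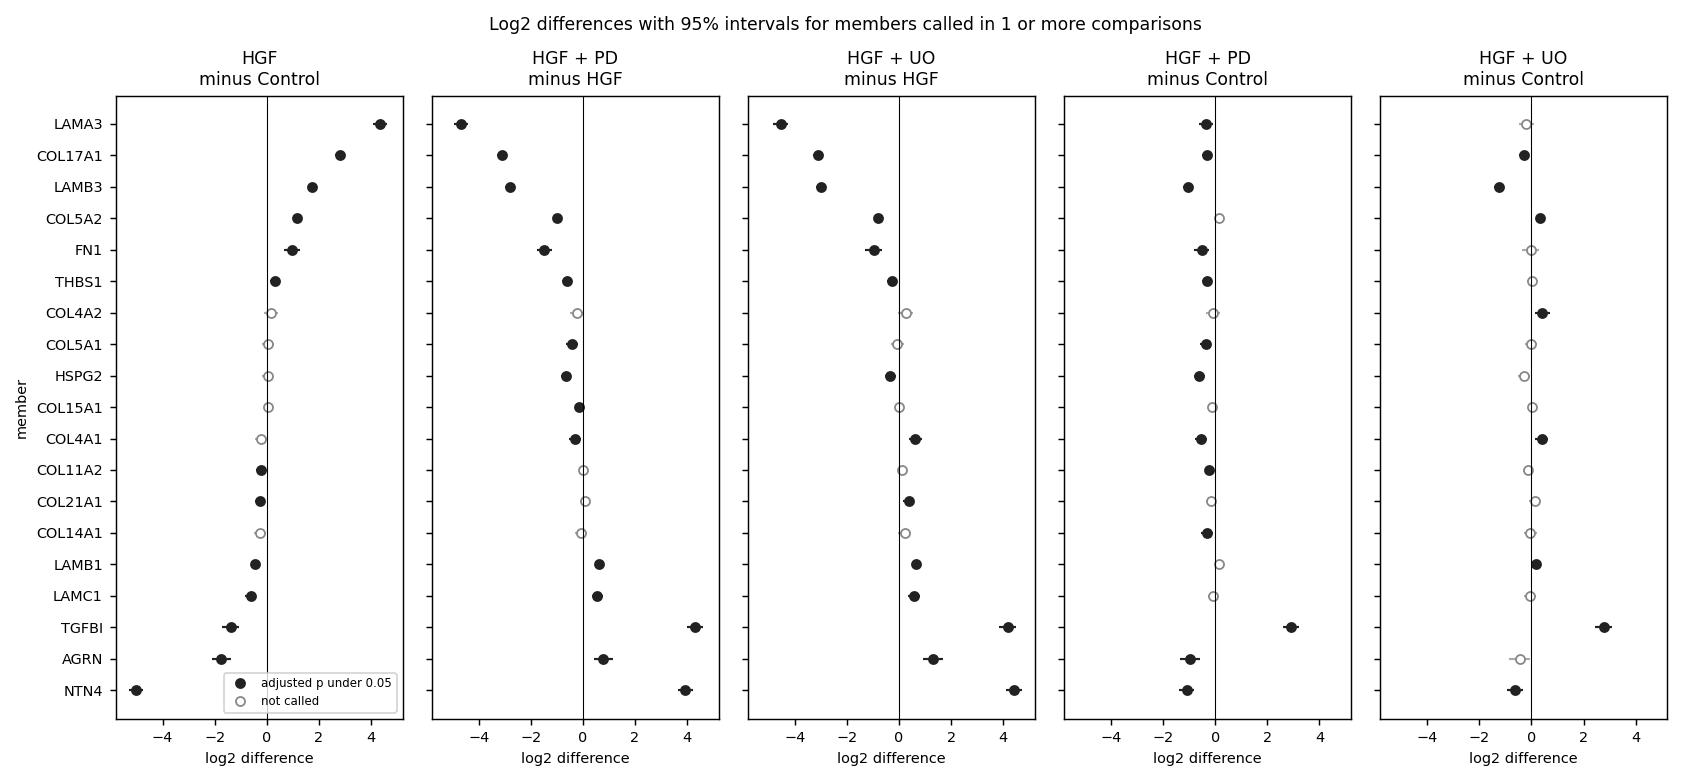
Log2 differences (x axis) with 95% intervals for the 19 members called in at least 1 of the 5 comparisons, 1 panel per comparison. Filled points passed an adjusted p of 0.05. LAMA3, COL17A1 and LAMB3 lie far to the right for HGF against Control and far to the left for either inhibitor against HGF, NTN4 and TGFBI the other way round, and TGFBI remains to the right for both inhibitor groups against Control.

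Set against Control, several matrix genes still differed in the inhibitor groups: LAMB3 and NTN4 were lower and TGFBI was higher with either compound. With HGF + PD 1 member was higher and 12 were lower, where 20.2% of probe sets were higher and 14.3% lower. With HGF + UO 5 were higher and 3 lower, where 11.9% of probe sets were higher and 10.3% lower. Of the 36 members tested, 36.1% were called with PD and 22.2% with UO (23.2% and 14.3% of all 56). Median differences over the 56 members were -0.073 with PD and -0.011 with UO, beside -0.031 and -0.0040 over all probe sets. The UO count of 8 called members was 5 without Control replicate 2, 3 or 4 or HGF + UO replicate 3, and 4 without Control replicate 1 or HGF + UO replicate 1. These comparisons share the Control arrays with each other and with HGF against Control.

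LAMB3 averaged 9.93 ± 0.11 with HGF + PD and 9.76 ± 0.18 with HGF + UO, against 10.99 ± 0.10 in Control. It lay below Control, with differences of -1.06 ± 0.08 with PD (adjusted p = 2.6e-07) and -1.23 ± 0.09 with UO (adjusted p = 2.82e-07), with no overlap. LAMA3 overlapped Control with UO and did not pass the test (-0.20, adjusted p = 0.342). Its small difference with PD (-0.34 ± 0.12, adjusted p = 0.0432) came with overlapping arrays and was lost without Control replicate 2 (-0.31) or 4 (-0.25), or HGF + PD replicate 1 (-0.33), 2 (-0.28) or 3 (-0.33). COL17A1 was slightly below Control with PD (-0.31 ± 0.09, adjusted p = 0.0132) and with UO (-0.29 ± 0.09, adjusted p = 0.038). The UO call was lost on leaving out any single Control or HGF + UO array, with values between -0.32 and -0.24.

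NTN4 remained below Control, at 8.34 ± 0.24 with PD and 8.83 ± 0.21 with UO, against 9.44 ± 0.15 in Control. The differences were -1.10 ± 0.13 with PD (adjusted p = 1.97e-05) and -0.62 ± 0.14 with UO (adjusted p = 0.00602). AGRN was lower with PD (-0.97 ± 0.17, adjusted p = 0.000534; -0.64 as the mean of its probe sets) and did not pass the test with UO (-0.45, 95% interval -0.85 to -0.05, adjusted p = 0.105). HSPG2 was lower with PD (-0.61 ± 0.10, adjusted p = 0.000205) and did not pass with UO (-0.30, adjusted p = 0.057). It passed without HGF + UO replicate 3 (-0.39) and after quantile normalization (-0.30, adjusted p = 0.038).

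TGFBI averaged 12.26 ± 0.22 with PD and 12.12 ± 0.10 with UO, against 9.35 ± 0.31 in Control. It was 2.91 ± 0.15 higher with PD (7.52-fold, adjusted p = 5.26e-09) and 2.77 ± 0.16 higher with UO (6.83-fold, adjusted p = 4.32e-08). It was the 1 member higher than Control with PD. FN1 was lower with PD by a margin at which arrays overlapped (-0.52 ± 0.14, adjusted p = 0.00976) and close to Control with UO (-0.02, adjusted p = 0.96). THBS1 was lower with PD (-0.32 ± 0.08, adjusted p = 0.00585) and at Control level with UO (0.02, adjusted p = 0.938).

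COL4A1 was below Control with PD (-0.55 ± 0.11, adjusted p = 0.00131) and above it with UO (0.39 ± 0.12, adjusted p = 0.0266). COL4A2 was above Control with UO (0.42 ± 0.14, adjusted p = 0.0399). The UO call of COL4A1 was lost without Control replicate 1 (0.38), 2 (0.39) or 4 (0.38) or HGF + UO replicate 1 (0.37) or 3 (0.31). That of COL4A2 was lost without any single Control array (0.38 to 0.43), HGF + UO replicate 1 (0.43) or HGF + UO replicate 3 (0.24). The COL4A2 call was also lost without the filter, with array medians subtracted (0.41), as the mean of its probe sets (0.33) and with only these 2 groups fitted. LAMB1 was above Control with UO by 0.19 ± 0.06 with overlapping arrays (adjusted p = 0.0297), a call lost without Control replicate 1 (0.18) or 3 (0.16) or HGF + UO replicate 1 (0.15) or 3 (0.17). COL5A2 stayed above Control with UO (0.34 ± 0.06, adjusted p = 0.000598), and its difference with PD was 0.14 (adjusted p = 0.0546). As the mean of its probe sets it was above Control with UO (0.57) and with PD (0.33, adjusted p = 0.000389). The PD difference was also called without Control replicate 4 (0.16), without HGF + PD replicate 3 (0.18), with array medians subtracted (0.17, adjusted p = 0.0275) and with the replicate block (adjusted p = 0.021).

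The remaining differences of HGF + PD from Control were small. COL5A1 was lower with overlapping arrays (-0.37 ± 0.11, adjusted p = 0.0133), or by -0.22 as the mean of its probe sets. COL14A1, a fibril-associated collagen, was lower (-0.33 ± 0.11, adjusted p = 0.0281), a call lost without Control replicate 1 (-0.33), 2 (-0.30) or 3 (-0.29) or HGF + PD replicate 1 (-0.33), 2 (-0.33) or 4 (-0.29). COL11A2 was lower (-0.23 ± 0.08, adjusted p = 0.0394), a call lost without Control replicate 3 (-0.16) or 4 (-0.22) or HGF + PD replicate 1 (-0.21) or 3 (-0.19).

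Over the 5 comparisons, 19 members were called at least once and 4 of them, COL17A1, LAMB3, NTN4 and TGFBI, in every comparison. Within single comparisons, between 24.1% (HGF + UO against Control) and 55.7% (HGF against Control) of the 10286 tested genes were called. The share of all genes called at least once, or in every comparison, was not counted, and the comparisons share arrays. The 17 members that reached the testing level and were called in none were COL2A1, COL3A1, COL4A4, COL6A1, COL6A3, COL7A1, COL8A2, COL10A1, COL13A1, COL22A1, COL25A1, COL26A1, COL27A1, LAMA1, LAMA4, LAMB2 and SPARC. Of these 16 had a mean log2 intensity under 8, and their whole range over the 15 arrays was 0.02 to 0.80, with a median of 0.29. COL2A1 of cartilage averaged 5.27 ± 0.03 with HGF and 5.25 ± 0.04 in Control, and COL22A1, found at tissue junctions, averaged 5.54 ± 0.02 with HGF and 5.56 ± 0.07 in Control. The microfibrillar chain COL6A1 averaged 4.03 ± 0.01 with HGF and 4.02 ± 0.01 in Control, and COL6A3 of the same collagen averaged 4.15 ± 0.07 with HGF and 4.09 ± 0.02 in Control. The short-chain collagens COL8A2 and COL10A1 averaged 4.68 ± 0.03 and 3.67 ± 0.03 with HGF, against 4.74 ± 0.13 and 3.95 ± 0.28 in Control. None of these differences passed the test.

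The transmembrane collagens COL13A1 and COL25A1 averaged 4.73 ± 0.01 and 7.74 ± 0.04 with HGF, against 4.77 ± 0.06 and 7.79 ± 0.10 in Control. COL26A1 averaged 6.48 ± 0.08 with HGF and 6.49 ± 0.02 in Control, and COL14A1 averaged 5.43 ± 0.08 with HGF and 5.68 ± 0.16 in Control (-0.25, adjusted p = 0.0615). Without Control replicate 4 the COL14A1 difference was called (-0.33), and without Control replicate 1 that of COL10A1 was (-0.37). GCRMA compresses the range at low intensity. Whether this hid differences in the dim collagens, whose means over all arrays reached 7.76 for COL25A1, was not tested.

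**Figure D4:**
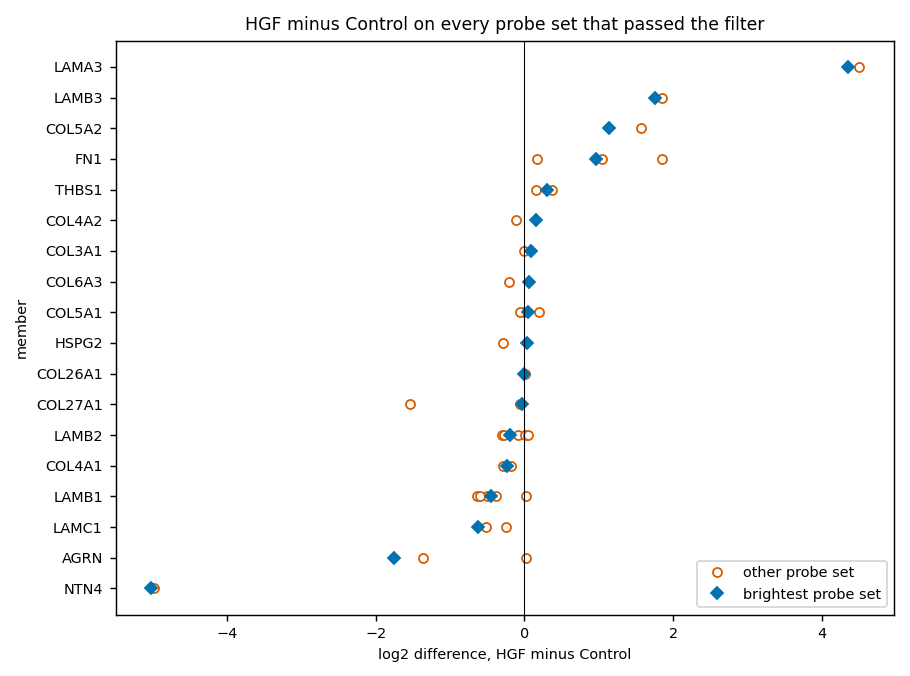
HGF minus Control log2 difference (x axis) for every probe set above the testing level of the 18 members that have more than 1. Diamonds are the brightest probe set of a member and open circles the others. The probe sets of LAMA3, LAMB3, NTN4, COL5A2 and LAMC1 fall on 1 side of 0, while AGRN, FN1, LAMB1 and COL27A1 have a probe set that stays near 0 or stands apart.

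Where a gene had several probe sets above the testing level, most large differences recurred on them, though probe sets of 1 gene share the same RNA. TGFBI has only 1 probe set, and COL17A1 has 2 of which 1 reached the testing level, so their differences rest on a single probe set each. LAMA3 gave 4.50 and LAMB3 gave 1.85 on the other probe set, and COL5A2 gave 1.57. LAMC1 was lower on all 3 of its probe sets. LAMB1 was lower on 5 of 6, with differences between -0.63 and -0.39, and its dimmest gave 0.02. FN1 was higher on 3 of 4 (0.96, 1.05 and 1.85), and the dimmest gave 0.17. For COL27A1, a fibrillar collagen of cartilage, the brightest probe set gave -0.03 and a dimmer one averaged 5.21 with HGF and 6.75 in Control (-1.54 ± 0.20, adjusted p = 1.16e-05). That dimmer probe set was higher with PD (0.65) and with UO (0.90) than with HGF alone, so COL27A1 is uncertain.

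Genes that process and cross-link collagen were listed separately, with 23 annotated and 19 at the testing level. With HGF 12 were higher and 1 lower, where 26.3% of probe sets were higher and 29.2% lower, and the median over the 23 was 0.11. LOX, the lysyl oxidase that cross-links collagen, averaged 5.92 ± 0.35 with HGF and 2.10 ± 0.01 in Control. It reached the testing level through the HGF arrays alone, so it could be tested only because it is high there, and without it 11 of 18 were higher and 1 lower. The next widest were the prolyl hydroxylase subunits P4HA3 (1.57 ± 0.16) and P4HA1 (1.53 ± 0.09), and the lysyl hydroxylase PLOD3 (1.33 ± 0.08). The 1 gene lower was SERPINH1, the collagen chaperone (-0.67 ± 0.09). Compared with HGF alone and leaving out LOX, 3 were higher and 7 lower with PD, where 30.3% of probe sets were higher and 25.1% lower. With UO the counts were also 3 higher and 7 lower, where 27.2% were higher and 25.2% lower. LOX averaged 2.07 with PD and 2.14 with UO.

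Of 18 annotated laminin and collagen receptors, 15 reached the testing level, and with HGF 8 were higher and 4 lower, where 26.3% of probe sets were higher and 29.2% lower. ITGA6, 1 chain of the hemidesmosome integrin, averaged 13.84 ± 0.10 with HGF and 9.50 ± 0.11 in Control. ITGA3, a second receptor chain for the LAMA3 laminin, averaged 11.31 ± 0.22 with HGF and 9.21 ± 0.24 in Control. BCAM, a receptor for LAMA5 laminins, was lower (-1.97 ± 0.15), as was DAG1, the dystroglycan that binds agrin and laminins (-1.57 ± 0.28). Against HGF alone, 3 receptors were higher and 10 lower with PD (30.3% and 25.1% of probe sets), and 3 higher and 9 lower with UO (27.2% and 25.2%). Against Control, 1 was higher and 7 lower with PD (20.2% and 14.3% of probe sets), and 0 higher and 4 lower with UO (11.9% and 10.3%).

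Of 46 other annotated matrix proteins, 24 reached the testing level, and with HGF 4 were higher and 7 lower, where 26.3% of probe sets were higher and 29.2% lower. TINAGL1, a basement membrane protein related to a tubular nephritis antigen, averaged 10.62 ± 0.28 with HGF and 7.05 ± 0.28 in Control, and ECM1, a secreted glycoprotein, averaged 9.34 ± 0.11 with HGF and 6.93 ± 0.07 in Control. The hyaluronan-binding proteoglycan VCAN (-2.91 ± 0.13) and the fibulin EFEMP1 (-2.62 ± 0.11) were lower. Against HGF alone 5 were higher and 5 lower with PD (30.3% and 25.1% of probe sets), and 5 higher and 5 lower with UO (27.2% and 25.2%). EFEMP1 was higher than Control with PD (0.72 ± 0.11) and with UO (0.80 ± 0.12), and VCAN differed from Control by -0.04 with PD and 0.01 with UO.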

How the data were processed

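RNA of 15 MDCK cultures was measured on Affymetrix canine arrays. The deposited values are linear probe set intensities that the authors obtained by GCRMA, as the submitters' processing notes state. The method subtracts a sequence-dependent background and normalises between arrays, and it compresses low values. Its version and a genome build are not given in the sources used here, and 1 array gave 1 column. The deposited table had 43035 probe sets, from 1.97 to 104385 in intensity.

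Log2 was taken without further scaling. The 111 control probe sets were left out, and those with a log2 of at least 4 on at least 3 of 15 arrays were tested (24904). Gene names came from the platform annotation (29264 probe sets with 1 symbol, 439 with several, 13332 with none). Differences were fitted with limma 3.58.1 in R 4.3.3, with 1 mean per group over all 15 arrays and eBayes with a variance trend. Adjusted p-values are Benjamini-Hochberg over all tested probe sets, with a threshold of 0.05. "Called" means past that threshold, and levels are log2 means ± SD with SE for differences. The fit was tested on simulated data.

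The members, lists and rules were chosen with earlier results of these data known. All passing members are named, with array values for those called at a difference of 1 or more for HGF against Control, or 2 or more for an inhibitor against HGF. FN1 and COL4A1 were added after their values were seen. From the other lists the 4 called genes with the widest HGF difference are named, and SERPINH1 was added as the 1 lower gene of its list. Replicates are labelled biological, and whether each came from its own culture is not stated, so the p-values cover the spread among these arrays, which may be technical. No 2 arrays were near-identical. Same-numbered arrays did not consistently deviate together (correlations -0.247 to 0.412 over 21 pairs, 8 over 0.1). Arrays of other numbers gave -0.494 to 0.395, so numbers were not used as pairs. Alternatives were normalization, median centring, a floor, the filter, the fit, the probe set rule, the replicate block and leaving out each array. No sequence was used here.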

Additional observations from a re-analysis of the deposited data

Results flagged for a closer look

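For 108 member groups of 4 arrays, the gap between the highest or lowest array and its nearest neighbour was divided by the range of the group and set against Dixon's 95% critical value. Groups of 3 arrays were not examined. Chance gives about 1 in 20 groups past that value when array values are independent and normal. The critical value was passed in 20 groups (18.5%), with 10 in HGF + PD, 3 in HGF and 7 in Control. In 16 of them the highest log2 intensity of the group was under 8. Members were not independent, since they share arrays. Tied values fix the ratio at 1, as for COL10A1 in HGF + PD (3.65, 3.74, 3.74 and 3.74) and COL6A3 in Control (4.10, 4.10, 4.07 and 4.10). The rate of 1 in 20 is therefore only a guide.

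Among brighter members, LAMB3 was lowest on HGF + PD replicate 1 (9.76, nearest 9.97, 0.852 of the range) and NTN4 was highest on HGF + PD replicate 2 (8.69, nearest 8.28, 0.833). LAMB2 was highest on HGF replicate 1 (9.93, nearest 9.53, 0.928), and COL5A1 had a single distant array, HGF replicate 1 (0.874).

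In the dim members, HGF + PD replicate 1 stood apart for COL10A1 (1), COL15A1 (0.830) and SPARC (0.957), and replicate 2 for COL6A3 (0.889). HGF + PD replicate 4 stood apart for COL21A1 (0.912), COL22A1 (0.959), COL7A1 (0.861) and LAMA4 (0.951). HGF replicate 1 did so for COL4A4 (0.867). Control replicate 1 did so for LAMA4 (0.842), Control replicate 2 for COL21A1 (0.919) and Control replicate 4 for COL8A2 (0.959). Control replicate 3 stood apart for COL22A1 (0.893), COL25A1 (0.899), COL26A1 (0.944) and COL6A3 (1).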

How the results depend on the processing

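Of the 63 called member differences, 50 stayed past the threshold under every alternative run, including all 24 of at least 1 on the log2 scale. The other 13, each given in the report, lost the call under at least 1 alternative. Against Control, COL11A2 (HGF, PD), LAMA3 (PD) and LAMB1 (UO) also lost it with medians subtracted and with only 2 groups fitted. COL14A1 (PD), COL17A1 (UO) and COL21A1 (HGF) against Control also lost it without the filter, and COL15A1 (PD against HGF) after quantile normalization. Another 23 differences that had not passed did so under at least 1. Beside those in the report, these included, with 1 array left out, COL6A3 with UO against HGF (-0.13 without HGF + UO replicate 2), COL14A1 with UO against HGF (0.32 without HGF + UO replicate 1), LAMB1 with PD against Control (0.18 without Control replicate 4, 0.17 without HGF + PD replicate 3), and COL3A1 (-0.15) and LAMB2 (-0.36) with PD against Control without Control replicate 1. The number of members called for HGF + UO against Control fell to 5 of 8 without the filter, and over arrays left out in turn it was 4 to 7. The ranges over arrays left out were 11 to 15 for HGF against Control, 13 to 16 for HGF + PD against HGF, 14 to 15 for HGF + UO against HGF and 10 to 14 for HGF + PD against Control. With the mean of all probe sets of a gene, COL27A1 turned to 0.21 with PD against HGF (adjusted p = 0.026, main -0.02) and 0.29 with UO against HGF (adjusted p = 0.00562, main -0.02), and HSPG2 with UO against HGF became -0.13 (adjusted p = 0.306). COL2A1 with UO against HGF became -0.17 without HGF + UO replicate 2 (adjusted p = 0.0258, main 0.00), and over arrays left out in turn it was -0.17 to 0.13. The cause of these changes was not tested.

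With the replicate number as a block, 14 members were called for HGF against Control, 15 for HGF + PD against HGF, 14 for HGF + UO against HGF, 13 for HGF + PD against Control and 7 for HGF + UO against Control. Over all probe sets the block gave 13924, 13850, 12919, 8820 and 5550 calls in the same order. Of 180 member differences 176 kept their side of the threshold. COL11A2 with PD against Control (adjusted p = 0.0679) and COL17A1 with UO against Control (adjusted p = 0.0833) lost the call under the block, and COL14A1 with HGF against Control (adjusted p = 0.0312) and COL5A2 with PD against Control (adjusted p = 0.021) gained it. In the check of the numbers, 5 of 15 arrays correlated best with their own number. How far the number of arrays and the floor of GCRMA limit what the dim collagens can show was not tested.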
